A study of Mus musculus with 4 samples.

Results

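Tumor cells sorted from subcutaneous MC38 tumors were examined for genes that mark epithelial, intestinal and mesenchymal identity. MC38 is a mouse cell line derived from a colon adenocarcinoma, and here it carried GFP. The 34 genes were chosen by name from textbook markers, with earlier results of these data known. They were 15 of epithelia, 6 of intestine and 13 of mesenchymal cells, and all 34 were found by symbol among the 53379 genes counted. All animals were C57BL/6 mice inoculated with 50000 cells below the right shoulder, and every animal received anti-PD-1 antibody at a dose described as sub-optimal, 100 µg per dose on days 12, 15, 18 and 22. The bulk mRNA libraries comprised 2 labelled non-responder and 2 labelled responder, with 18447041 to 21754063 counted reads each. The malignant cells come from this 1 cell line, no untreated or cultured cells were among the libraries, and whether a group's 2 libraries stem from different animals is not given, so each p-value reflects the spread between libraries, which may be technical. CPM values below are reads per 1000000 counted reads after TMM normalisation, RPKM values are the same per kilobase of exon, and SDs are over n = 2 libraries a group.

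Epithelial cells are held together by the adhesion receptor E-cadherin, by claudins and occludin in tight junctions and by keratin filaments, and the factors GRHL2, OVOL1 and ESRP1 maintain that programme. In an epithelial to mesenchymal transition the transcription factors of the SNAI, ZEB and TWIST families repress E-cadherin and other junction genes, while N-cadherin, vimentin and fibronectin increase. Colonic cells also carry an intestinal programme set by the homeodomain factors CDX1 and CDX2 and by HNF4A.

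The libraries held almost no epithelial or intestinal transcripts and abundant mesenchymal ones. Of the 21 epithelial and intestinal members, 12 had 3 or fewer reads in each of the 4 libraries, here called silent, and 6 more averaged under 0.5 CPM, here called very low. That left Cdh1, Tjp1 and Lgals4 as expressed. The silent share was 57.1%, where it was 37% over 20915 protein-coding genes. Without Tjp1, the 20 other epithelial and intestinal members had 393 reads together among 82329745, or 0.000477% of all reads. None of the 13 mesenchymal members was silent or very low, and together they took 1.76% of all reads. Most of this was Fn1 and Vim, with 965087 and 293484 of their 1445105 reads. Tjp1 alone had 13824 reads. The labels call the cells an adenocarcinoma, and the usual epithelial and intestinal markers of that tissue were absent or near 0 here.

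**Figure D1:**
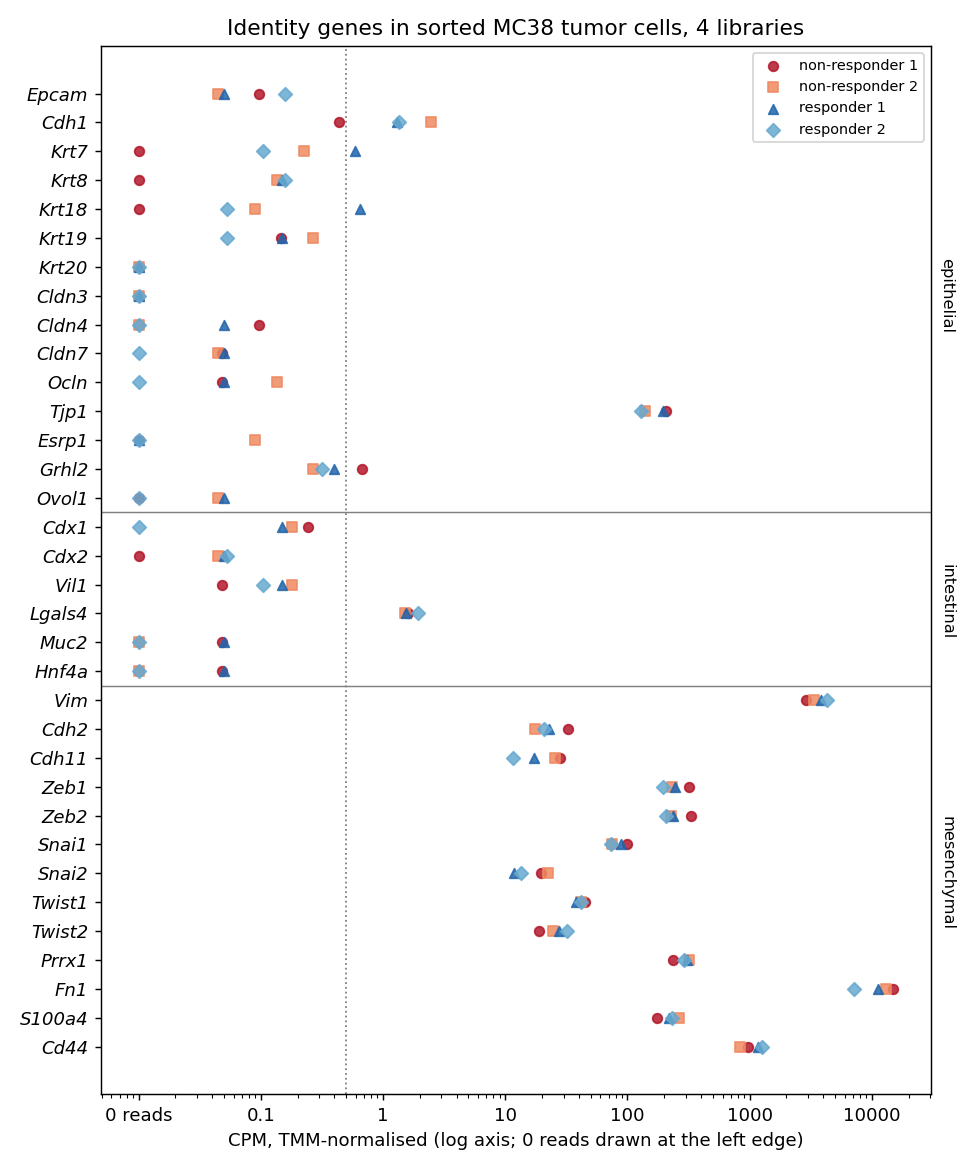
Level of each of the 34 identity genes in each of the 4 libraries, in TMM-normalised CPM on a log axis, with libraries at 0 reads drawn at the left edge and a dotted line at 0.5 CPM. Mesenchymal genes lie to the right of 10 CPM in every library, while all epithelial and intestinal genes except Cdh1, Tjp1, Lgals4 and single libraries of Krt7, Krt18 and Grhl2 lie to the left of the dotted line.

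Surface and junction genes of epithelia were at or near 0. Epcam, the epithelial adhesion molecule used to isolate carcinoma cells, had 2 and 1 reads in non-responder replicates 1 and 2 and 1 and 3 reads in responder replicates 1 and 2. Summed over the libraries this is 0.085 CPM (exact 95% Poisson interval 0.0342 to 0.175, counting error only). Cldn3, a tight junction claudin, had 0 reads in all 4 libraries, which allows a level of up to 0.0364 CPM at 3 reads over the summed depth. Cldn4 had 3 reads in all, Cldn7 3 reads and Ocln, which encodes occludin, 5 reads.

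Keratins of simple epithelia were scarce. Krt20, a keratin of mature intestinal epithelium, had 0 reads in all 4 libraries. Krt8, which pairs with Krt18 in simple epithelial filaments, had 0 and 3 reads in the non-responder libraries against 3 and 3 reads in the responder ones. Krt18 had 0 and 2 reads in the non-responder libraries against 13 and 1 reads in the responder ones, so 13 of its 16 reads lay in responder replicate 1. Krt7, a keratin of ductal epithelia, was also highest in that library, with 0 and 5 reads in the non-responder libraries against 12 and 2 reads in the responder ones. Krt19 had 3 and 6 reads against 3 and 1. Reads that fit several places in the genome were not counted, so keratin genes with close copies can be undercounted.

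Regulators of the epithelial state followed the same pattern. Esrp1, the epithelial splicing regulator, and Ovol1, a zinc-finger factor that represses Zeb1, had 2 reads each in the whole series. Grhl2, a grainyhead factor that activates junction genes, had 14 and 6 reads in the non-responder libraries against 8 and 6 reads in the responder ones, a summed level of 0.413 CPM (exact 95% Poisson interval 0.286 to 0.577). Its groups overlapped, and only non-responder replicate 1, at 0.676 CPM, was above 0.5 CPM.

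The intestinal programme was as sparse. Cdx2, the master regulator of intestinal identity, had 3 reads in all, and Hnf4a, a nuclear receptor of gut and liver, and Muc2, the secreted mucin of goblet cells, had 2 each. Cdx1 had 5 and 4 reads in the non-responder libraries against 3 and 0 reads in the responder ones. Vil1, which encodes the microvillus protein villin, had 10 reads in all. Lgals4, a galectin of the gut epithelium, was the exception and was even between libraries, with 33 and 34 reads in the non-responder libraries against 31 and 37 reads in the responder ones. That is 1.59 and 1.52 CPM against 1.54 and 1.94 CPM (log2 fold change 0.15, SE 0.41, edgeR adjusted p = 0.963), and the log2 fold change was -0.02 without responder replicate 2.

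Tjp1 was the only epithelial member with a high level, and supplied 94.7% to 98.6% of the summed RPKM of the 15 epithelial members. It encodes the scaffold protein ZO-1, which also serves junctions of non-epithelial cells. Its levels were 208 and 139 CPM in non-responder replicates 1 and 2 and 195 and 130 CPM in responder replicates 1 and 2. Replicate 1 was the higher in both groups, and the groups overlapped (log2 fold change -0.09, SE 0.27, edgeR adjusted p = 0.966). The direction turned without non-responder replicate 1 (0.23) or responder replicate 2 (0.17).

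The sequence around the start of several silent genes and of Vim is shown with the E-box hexamer CAGGTG marked. SNAI and ZEB factors are known to bind that hexamer. Windows of 300 bases, from 250 before to 50 after the annotated start, came from RefSeq on GRCm38.p6 and were found for 23 of the 34 members (29 windows). The search used CAGGTG and its reverse complement CACCTG, which covers both strands, and capitals mark each match. The windows are chr17:87635729-87636028 on the plus strand for Epcam, chr5:134946885-134947184 on the minus strand for Cldn4, chr11:69965171-69965470 on the plus strand for the downstream start of Cldn7, chr15:102004293-102004592 on the minus strand for Krt8 and chr2:13574061-13574360 on the plus strand for Vim.
Epcam: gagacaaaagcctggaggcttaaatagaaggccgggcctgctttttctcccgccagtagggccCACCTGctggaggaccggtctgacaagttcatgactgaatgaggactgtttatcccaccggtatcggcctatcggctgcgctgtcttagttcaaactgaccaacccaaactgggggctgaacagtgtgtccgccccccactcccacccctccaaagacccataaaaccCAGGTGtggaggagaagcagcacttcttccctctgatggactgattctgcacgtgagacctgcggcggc
Cldn4: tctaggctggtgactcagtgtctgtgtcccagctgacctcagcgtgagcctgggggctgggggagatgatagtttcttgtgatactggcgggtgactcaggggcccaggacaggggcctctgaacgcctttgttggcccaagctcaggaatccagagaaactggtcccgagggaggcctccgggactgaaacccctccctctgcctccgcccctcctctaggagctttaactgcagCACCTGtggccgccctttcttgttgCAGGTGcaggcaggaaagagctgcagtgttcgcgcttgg
Cldn7: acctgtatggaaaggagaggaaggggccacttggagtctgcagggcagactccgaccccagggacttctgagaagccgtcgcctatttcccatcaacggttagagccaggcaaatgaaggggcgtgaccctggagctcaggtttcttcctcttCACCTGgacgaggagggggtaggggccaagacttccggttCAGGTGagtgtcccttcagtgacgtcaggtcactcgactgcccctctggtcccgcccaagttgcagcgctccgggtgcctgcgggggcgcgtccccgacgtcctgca
Krt8: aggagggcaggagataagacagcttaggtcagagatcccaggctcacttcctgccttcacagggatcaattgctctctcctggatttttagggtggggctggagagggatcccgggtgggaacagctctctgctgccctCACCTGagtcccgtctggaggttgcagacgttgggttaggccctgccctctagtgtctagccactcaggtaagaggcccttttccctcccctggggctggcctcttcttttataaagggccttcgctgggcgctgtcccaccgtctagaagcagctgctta
Vim: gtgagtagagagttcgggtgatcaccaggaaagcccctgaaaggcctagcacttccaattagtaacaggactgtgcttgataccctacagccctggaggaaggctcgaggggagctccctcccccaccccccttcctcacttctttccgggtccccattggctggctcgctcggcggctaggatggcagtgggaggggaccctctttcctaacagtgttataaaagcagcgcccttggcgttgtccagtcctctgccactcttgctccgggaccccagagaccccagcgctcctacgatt

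With the first transcribed base counted as 1 and the base before it as -1, matches began at -187 and -19 from the start in Epcam, at -14 and 12 in Cldn4, at -97 and -57 in Cldn7 and at -111 in Krt8, and the Vim window held none. Of 11 windows of the 9 matched epithelial genes that were silent or very low, 9 held the hexamer (81.8%), where 6634 of 32817 windows of all RefSeq genes did (20.2%). Krt20 and the upstream start of Cldn7 were those without it, at a GC content of 50% and 52%, where the 9 with it had 57% to 68%. It was in 3 of 6 windows of the intestinal members, among them that of Lgals4, which was expressed. The windows of Cdx2 and Muc2 and the upstream window of Hnf4a, all silent genes, held none. In the mesenchymal members it was in 1 of 11 windows, that of Snai1, and those windows came from 8 genes. The epithelial windows had a GC content of 50% to 68% and the mesenchymal windows 47.7% to 70%, where the median of all windows was 52.7%. The windows of all RefSeq genes were not matched to the members for base content, and windows of the same gene can overlap, as those of Ocln do. A match describes the letters of the window, and binding was not measured. Whether the hexamer bears on the level of a gene was not tested. Cdh1, Krt19, Esrp1, Grhl2, Ovol1, Cdx1, Cdh2, Cdh11, Zeb1, Snai2 and Fn1 had no window.

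Cdh1, which encodes E-cadherin, was present at a low and uneven level. It had 9 and 55 reads in non-responder replicates 1 and 2 and 26 reads in each responder library, or 0.435 and 2.47 CPM against 1.29 and 1.36 CPM. Both responder libraries lay between the non-responder libraries, which differed 5.67-fold (log2 fold change -0.14, SE 0.74, edgeR adjusted p = 0.984). The sign of that fold change was not stable: it was 1.59 without non-responder replicate 2, and with all libraries 0.31 in limma-voom and 0.16 with the replicate number as a block.

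Cdh26, an atypical cadherin, and Cldn1, a tight junction claudin, were high and low in the same non-responder libraries as Cdh1. Both were picked after their values were seen, and the share of all genes with this pattern was not counted. Cdh26 had 4.3 and 20.8 CPM in non-responder libraries against 10.6 and 9.63 CPM in the responder ones. Cldn1 had 1.16 and 10.4 against 4.01 and 4.24 CPM. The pattern was not particular to adhesion genes. The mesenchymal genes Acta2, Prrx1 and S100a4 were also highest in non-responder replicate 2 and lowest in non-responder replicate 1. The leukocyte gene Ptprc was also highest in non-responder replicate 2 but lowest in another library, with 5.94 and 22.6 against 0.644 and 6.91 CPM. The part of leukocytes in the Cdh1 values was not tested.

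**Figure D2:**
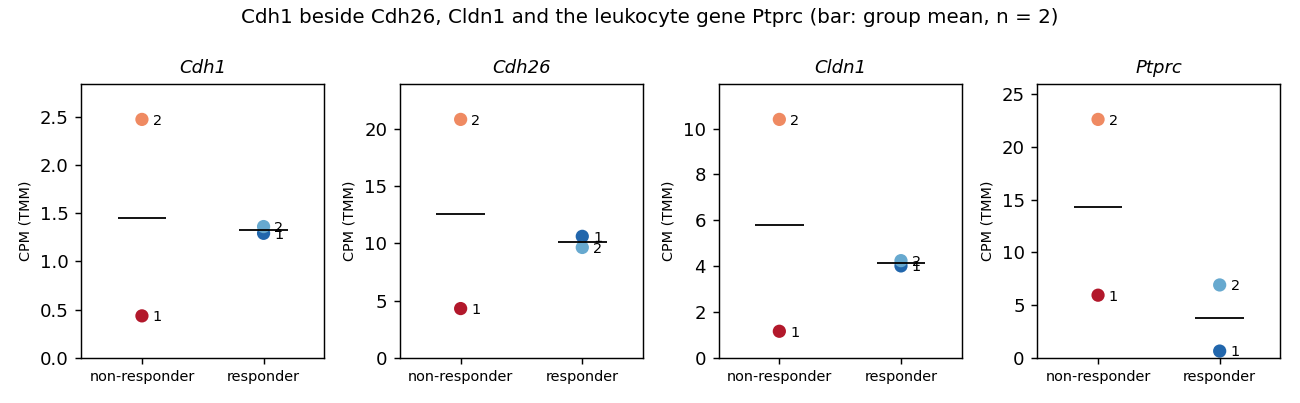
CPM of Cdh1, Cdh26, Cldn1 and Ptprc in each library, on linear axes from 0, with replicate numbers beside the points and a bar at each group mean. Cdh1, Cdh26 and Cldn1 are highest in non-responder replicate 2 and lowest in non-responder replicate 1, while Ptprc is lowest in responder replicate 1.

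N-cadherin and cadherin-11 transcripts exceeded those of E-cadherin per length in every library. Cdh2, the cadherin that replaces E-cadherin in mesenchymal cells, had 4.01 and 2.17 RPKM in the non-responder libraries against 2.81 and 2.58 RPKM in the responder ones. The Cdh2 to Cdh1 ratio of RPKM levels was 42.2 and 4.02 in non-responder and 9.97 and 8.66 in responder libraries, with Cdh1 ranging 5.67-fold and Cdh2 1.85-fold over the libraries. Cdh11, a cadherin of mesenchyme and bone, had 3.16 and 2.89 RPKM in the non-responder libraries against 1.94 and 1.29 RPKM in the responder ones. Against Cdh1 its ratio was 33.2 and 5.36 in non-responder and 6.88 and 4.35 in responder libraries. Cdh2 was above Cdh11 in 3 of 4 libraries, and the order of those genes was not separated beyond the spread between libraries.

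Among all 23 genes with a numbered cadherin symbol, 9 were silent, 4 very low and 10 expressed. The silent share over all protein-coding genes was 37%, to be set beside each family here. By mean RPKM level the expressed ones stood in the order Cdh26 (3.76), Cdh2 (2.89), Cdh11 (2.32), Cdh24 (2.15), Cdh19 (1.76), Cdh5 (1.02), Cdh10 (0.948), Cdh18 (0.385), Cdh1 (0.303) and Cdh17 (0.202), with overlapping ranges between each gene and the next. Cdh1, the cadherin that defines epithelia, was thus 1 of the least abundant of those expressed. Of 23 numbered claudins, 17 were silent and 4 very low, which left Cldn1 at a mean of 1.53 RPKM and Cldn12 at 43.7 RPKM. Of 50 numbered keratins, 42 were silent and 3 very low. The 5 expressed keratins were Krt14, Krt10, Krt16, Krt42 and Krt80, at mean levels of 2.29, 2.03, 1.91, 1.71 and 0.487 RPKM.

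**Figure D3:**
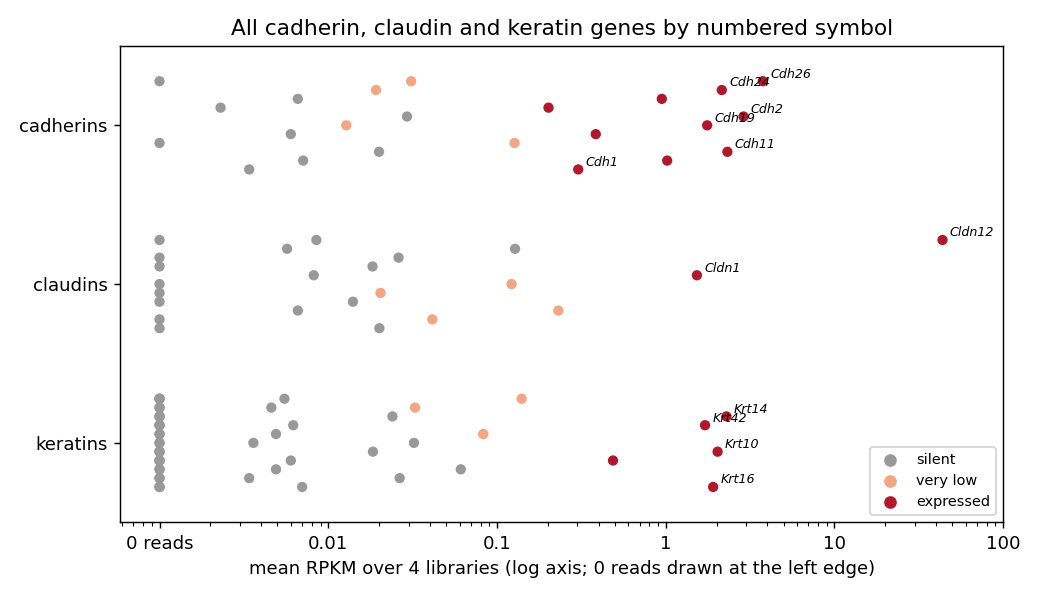
Mean RPKM over the 4 libraries, on a log axis, of all 23 cadherin, 23 claudin and 50 keratin genes with a numbered symbol; each point is a gene, coloured as silent, very low or expressed, and genes with 0 reads are drawn at the left edge. Most claudins and keratins are silent, where 37% of protein-coding genes are, and Cldn12 at 43.7 RPKM is the highest gene of these families.

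The structural mesenchymal genes were among the most abundant transcripts of the cells. Fn1, which encodes the matrix protein fibronectin, ranked 16 and Vim, which encodes the intermediate filament vimentin, ranked 19 by mean RPKM among 53379 genes, at 994 and 756 RPKM. S100a4, a calcium-binding protein gene also called fibroblast-specific protein, ranked 41 at 379 RPKM. Cd44, the hyaluronan receptor, ranked 179 at 156 RPKM. Its splice forms, which ESRP1 is known to control, cannot be told apart in counts per gene.

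All of the classical transition factors were transcribed. Snai1 was the highest of them per length, at 51.8 RPKM, followed by Prrx1 (26.1), Twist1 (25.4), Zeb1 (24.1), Zeb2 (12.6), Snai2 (8.24) and Twist2 (8.15). Prrx1, Twist1 and Zeb1 overlapped across libraries, as did Zeb2 with Snai2, and Snai2 with Twist2. Within the pairs of related factors, Snai1 was 4.21 to 9.4 times as high as Snai2, Zeb1 was 1.84 to 2 times as high as Zeb2, and Twist1 was 2.54 to 4.58 times as high as Twist2, as RPKM within a library. The order within each pair was the same in all 4 libraries.

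Between the groups, no identity gene passed the test over all genes. A filter on low counts left 16 of the 34 members for testing, all 13 mesenchymal ones with Cdh1, Tjp1 and Lgals4. The 18 others were epithelial or intestinal genes too low to test. In edgeR's quasi-likelihood fit of 13792 genes, with Benjamini-Hochberg adjustment, 0 of the 16 passed an adjusted p of 0.05, as did 0% of all tested genes. DESeq2 and limma-voom also called 0 of them. At an unadjusted p under 0.05 there were 2 members, Cdh11 and Snai2, both lower in responder libraries, where 3.63% of all tested genes were lower, 2.57% higher and 6.21% were past it in either direction. The median log2 fold change of the 13 mesenchymal members was -0.12 (5 higher and 8 lower), beside -0.01 over all tested genes.

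**Figure D4:**
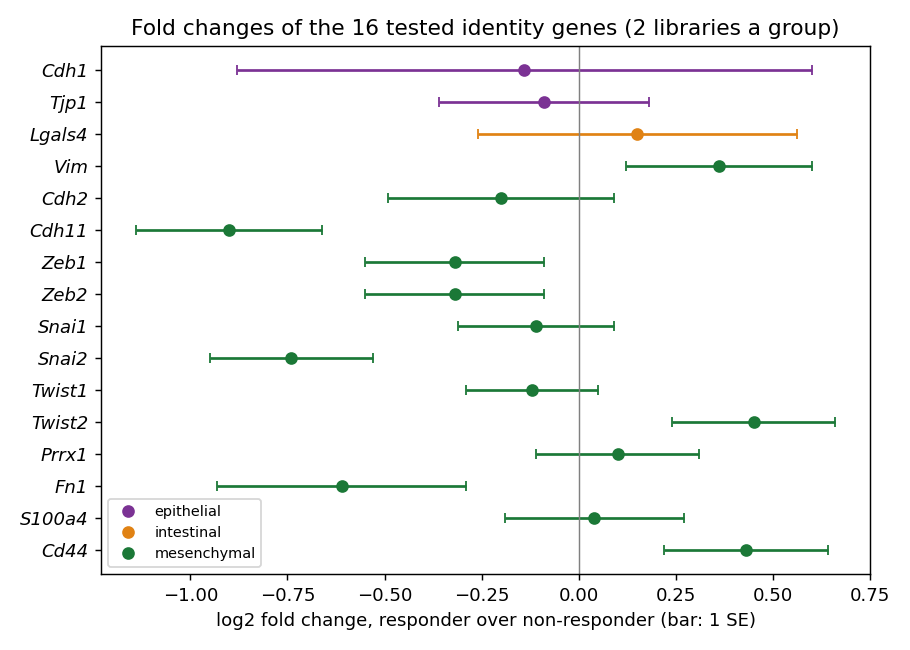
Log2 fold change, responder over non-responder, of the 16 tested members with a bar of 1 standard error from edgeR's fit, coloured by group of genes. Cdh11 at -0.90 and Snai2 at -0.74 lie farthest below 0, and Twist2 at 0.45 and Cd44 at 0.43 farthest above.

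The responder and non-responder libraries did not overlap for 6 mesenchymal members, 3 higher and 3 lower in responder, where 36.5% of all tested genes did not overlap, 18.8% higher and 17.8% lower. Cdh11 had 28.1 and 25.7 CPM in non-responder libraries against 17.2 and 11.5 CPM in the responder ones. Both responder libraries lay below, at means of 26.9 ± 1.67 and 14.4 ± 4.05 CPM, a fitted 1.87-fold lower level (log2 fold change -0.90, SE 0.24, edgeR adjusted p = 0.631). It was -0.64 when responder replicate 2 was left out and -1.23 when responder replicate 1 was. Without non-responder replicate 2 the log2 fold change of Cdh11 was -0.97, and without non-responder replicate 1 it was -0.83. The adjusted p of Cdh11 ranged from 0.0211 to 1 over all alternatives.

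Snai2, the SNAI family member also called Slug, had 19.6 and 22.3 CPM in non-responder libraries against 11.7 and 13.4 CPM in the responder ones. Its responder libraries both lay below, 1.67-fold lower in the fit (log2 fold change -0.74, SE 0.21, edgeR adjusted p = 0.631). Its relative Snai1 had 99.4 and 75 against 87.7 and 73.6 CPM, with overlapping groups (log2 fold change -0.11, SE 0.20). That of Snai1 was 0.11 when non-responder replicate 1 was left out and 0.01 when responder replicate 2 was. The difference between the 2 relatives was not tested.

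Fn1 had 14966 and 13121 CPM in non-responder libraries against 11276 and 7076 CPM in the responder ones. The groups did not overlap, and responder replicate 2 was the lowest library (log2 fold change -0.61, SE 0.32, edgeR adjusted p = 0.815). Without that library the log2 fold change was -0.31, and without responder replicate 1 it was -0.99. Fn1 took 1.42% and 1.35% of all reads in non-responder and 1.11% and 0.733% in responder libraries.

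Twist2, Cd44 and Vim were higher in both responder libraries, none past the test. Twist2, a basic helix-loop-helix factor of mesoderm, had 19 and 24.6 CPM in non-responder libraries against 27.6 and 32.2 CPM in the responder ones (log2 fold change 0.45, SE 0.21, edgeR adjusted p = 0.796). Its relative Twist1 was nearly level, at 44.7 and 41.4 against 37.6 and 41.9 CPM, with overlapping groups. Cd44 had 964 and 830 against 1171 and 1251 CPM (log2 fold change 0.43, SE 0.21, edgeR adjusted p = 0.796). Vim had 2901 and 3371 against 3812 and 4258 CPM (log2 fold change 0.36, SE 0.24, edgeR adjusted p = 0.854).

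**Figure D5:**
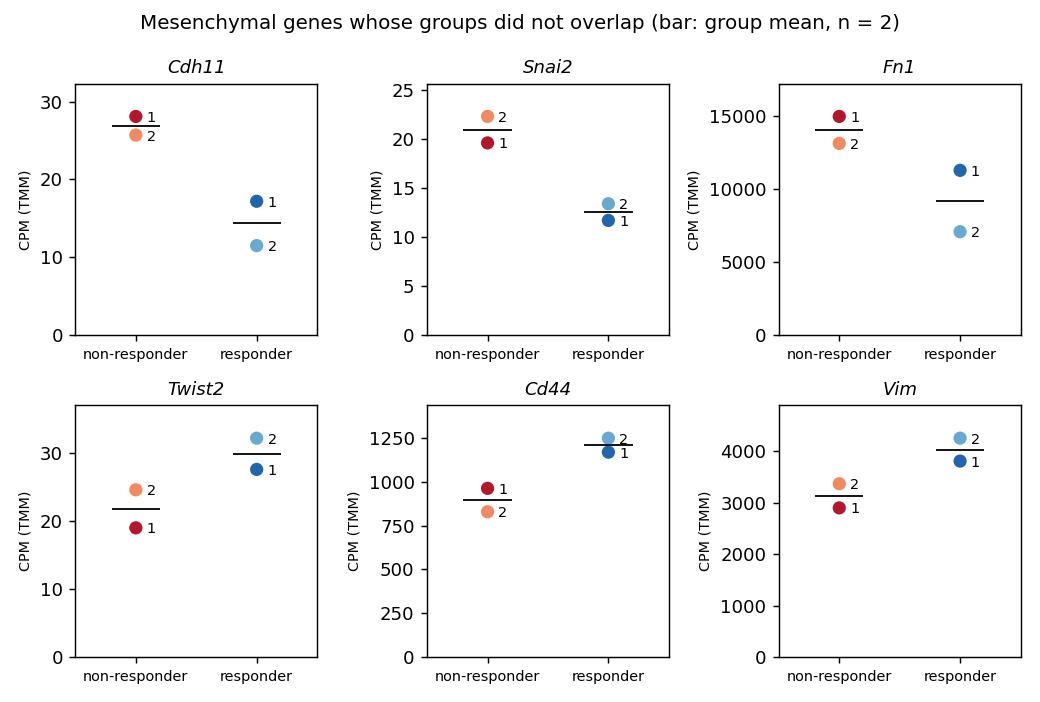
CPM of the 6 mesenchymal members whose groups did not overlap, in each library, on linear axes from 0, with replicate numbers beside the points and a bar at each group mean. Cdh11, Snai2 and Fn1 lie lower and Twist2, Cd44 and Vim higher in both responder libraries.

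The other mesenchymal members overlapped between the groups. Zeb1 had 317 and 232 CPM in non-responder libraries against 244 and 197 CPM in the responder ones, and Zeb2 had 332 and 225 against 238 and 207 CPM. Both ZEB genes were highest in non-responder replicate 1 and lowest in responder replicate 2, each with a log2 fold change of -0.32 (SE 0.23). Without non-responder replicate 1 these were -0.07 for Zeb1 and -0.01 for Zeb2. Cdh2, with 32.4 and 17.5 against 22.7 and 20.8 CPM, was also highest in non-responder replicate 1 (log2 fold change -0.20, SE 0.29), and its fold change was 0.32 without it. Prrx1, a homeobox factor of limb and facial mesenchyme, had 238 and 318 against 308 and 290 CPM. S100a4 had 173 and 263 against 218 and 230 CPM. Both were lowest in non-responder replicate 1, and without it their log2 fold changes turned from 0.10 to -0.09 and from 0.04 to -0.23.

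Markers of other cell types stood beside these values as follows, and their part in them was not tested. Of 18 fibroblast markers 14 were tested, and 11 of those had lower fitted levels in the responder group. Their median log2 fold change was -0.72, where that of all tested genes was -0.01. Of these 14, 7 were lower at an unadjusted p under 0.05 (3.63% of all tested genes) and 9 were lower without overlap (17.8% of all tested genes). Of the 6 mesenchymal members without overlap, Cdh11, Snai2 and Fn1 had lower values in responder libraries too, while Twist2, Cd44 and Vim had higher ones. The summed levels of the 18 markers were 14566 to 20102 CPM in non-responder and 10784 to 12723 CPM in responder libraries. No fibroblast marker was at 0 in all libraries, although Thy1, Pi16, Cthrc1 and Mmp3 had 18 reads or fewer in each. The 22 leukocyte markers summed to 116 and 331 CPM in non-responder replicates 1 and 2 and to 15.9 and 116 CPM in responder replicates 1 and 2. All 16 that were tested had lower fitted levels in the responder group, 0 of them at an unadjusted p under 0.05 (3.63% of all tested genes). Of these 16, 4 were lower without overlap (17.8% of all tested genes). The 11 endothelial and pericyte markers summed to 90.3 to 139 against 117 to 148 CPM, most of it Cspg4, with Kcnj8 at 0 throughout. Of these 11 markers 4 were tested, 3 higher and 1 lower in responder, at a median log2 fold change of 0.37. The lower one was Pecam1, which encodes the endothelial adhesion molecule CD31 and is also made by some leukocytes. Pecam1 had 17.8 and 25.5 CPM in non-responder libraries against 6.34 and 11.6 CPM in the responder ones (log2 fold change -1.27, SE 0.33, edgeR adjusted p = 0.631). The 16 skin epithelium markers summed to 11 to 16.4 against 14.3 to 14.9 CPM, with Dsg3, Ivl, Lor and Perp at 0 reads in all libraries. In bulk libraries, fewer cells of a type and less RNA per cell cannot be told apart. Nor can marker transcripts made by the malignant cells be told from those of other cells.

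Of 44 further adhesion, junction and epithelial regulator genes, 21 were silent, 8 very low and 15 expressed, where 37% of protein-coding genes were silent. The desmosomal cadherin gene Dsg2, the polarity gene Crb3 and the epithelial factor genes Grhl3 and Ovol2 had 0 reads in all libraries. The highest per length were the catenin genes Ctnna1 (189 RPKM) and Ctnnb1 (85.4 RPKM), whose products link any classical cadherin to the cytoskeleton, and Cldn12 (43.7 RPKM). Of 16 tested, 6 were higher and 10 lower in responder, at a median log2 fold change of -0.09, and none passed.

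Jup, which encodes plakoglobin of desmosomes and adherens junctions, had the smallest p of that list. It had 23.5 and 13.1 CPM in non-responder libraries against 4.46 and 7.8 CPM in the responder ones, which did not overlap (log2 fold change -1.58, SE 0.38, edgeR adjusted p = 0.595). DESeq2 called it (log2 fold change -1.59, adjusted p = 0.0445). With 1 library left out, Jup had log2 fold changes from -2.03 (without responder replicate 2) to -1.08 (without non-responder replicate 1). Over all alternatives its adjusted p ranged from 1.19e-05 to 0.825. F11r, the junctional adhesion molecule A gene, which leukocytes also express, had 0.918 and 3.77 against 0.198 and 0.733 CPM (log2 fold change -2.33, SE 0.86, edgeR adjusted p = 0.765). With 1 library left out, F11r had log2 fold changes from -3.52 (without responder replicate 2) to -0.98 (without non-responder replicate 2). Its highest and lowest libraries were those of Ptprc. On the higher side, Grhl1 had 1.84 and 1.17 against 2.33 and 2.2 CPM (log2 fold change 0.59, SE 0.43) and Pkp1, a plakophilin, 0.676 and 0.224 against 0.743 and 0.785 CPM (log2 fold change 0.77, SE 0.63).

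Further intestinal genes were silent in 28 of 40 cases, where 37% of protein-coding genes were silent. Of these, 13 had 0 reads in every library, among them Fabp1, Fabp2, Alpi, Car1, Tff3 and Cftr. Among the highest per length were transcription factor genes that also act outside the gut: Klf4 (91.9 RPKM) and Sox9 (69.5 RPKM). Klf4, a Krüppel-like factor of differentiating epithelium, had 155 and 237 CPM in non-responder libraries against 319 and 411 CPM in the responder ones. Both responder libraries lay above (log2 fold change 0.90, SE 0.26, edgeR adjusted p = 0.631), and it passed without non-responder replicate 2 (log2 fold change 1.24, edgeR adjusted p = 0.00592). Sis, the brush-border sucrase-isomaltase gene, was uneven, with 196 and 38 reads in the non-responder libraries against 85 and 9 reads in the responder ones. It was higher in replicate 1 of both groups (log2 fold change -1.24, SE 1.34), and the log2 fold change was 0.47 without non-responder replicate 1. That of Sis was -3.56 when responder replicate 1 was left out. Ceacam1 had 15 and 14 against 2 and 9 reads (log2 fold change -1.24, SE 0.73). Of 9 tested, 6 were higher and 3 lower, and none passed.

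Of 40 further mesenchymal genes, 34 were expressed, 3 very low and 3 silent, where 37% of protein-coding genes were silent. The highest per length were Lgals1 (2170 RPKM), a galectin, S100a6 (635 RPKM) and Sparc (358 RPKM), a collagen-binding matrix protein. The silent ones were Cdh4 and Meox2, at 0 reads, and Cnn1, with 1 read in each library. Cdh6, Des and Tagln were very low, with 14 reads or fewer in each library. Acta2, which encodes smooth muscle actin, had 13 and 76 reads in the non-responder libraries against 34 and 24 reads in the responder ones. Of 34 tested, 14 were higher and 20 lower in responder, at a median log2 fold change of -0.06, and none passed.

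Genes of small p among them went both ways. Hmga2, a chromatin protein gene of embryonic mesenchyme, had 184 and 143 CPM in non-responder libraries against 252 and 225 CPM in the responder ones (log2 fold change 0.55, SE 0.20, edgeR adjusted p = 0.749). Rbms3, an RNA-binding protein gene, had 49.8 and 39.2 against 31.9 and 30.5 CPM (log2 fold change -0.51, SE 0.18, edgeR adjusted p = 0.746). Ncam1, the neural cell adhesion molecule gene, had 259 and 182 against 159 and 137 CPM (log2 fold change -0.57, SE 0.22, edgeR adjusted p = 0.765). The groups of these 3 genes, picked by their small p, did not overlap, as was so for 36.5% of all tested genes. The log2 fold changes of Rbms3 and Ncam1 were -0.68 and -0.81 without non-responder replicate 2, and -0.32 and -0.29 without non-responder replicate 1.

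On mm10, with counts over annotated exons as in the deposited annotation, Cdh1 (ENSMUSG00000000303) spans chromosome 8 from 106603351 to 106670246, Cdh11 chromosome 8 from 102632095 to 102785642, Snai2 chromosome 16 from 14705852 to 14709395, Epcam chromosome 17 from 87635979 to 87651106, and Vim chromosome 2 from 13573927 to 13582826.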

How the data were processed

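The deposited values are raw counts, 1 file per library and not pooled, counted with featureCounts 1.6.1, reverse-stranded (setting 2), on Ensembl release 91, per the file headers. STAR and mm10 (GRCm38) are named in the submitters' processing notes; the STAR version is not given in the sources used here. Multi-mapping reads were not requested in the counting command, and genes with near-identical copies can be undercounted. Symbols were matched for 53274 of 53379 identifiers.

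Groups and replicate numbers came from the sample titles. Genes were kept by filterByExpr (minimum count 10), scaled by TMM (factors 0.952 to 1.04) and tested with edgeR 4.0.16 in R 4.3.3, a robust quasi-likelihood test on all 4 libraries with group as the only term. The threshold was an adjusted p of 0.05 (Benjamini-Hochberg), and SE is the size of the log2 fold change over the square root of F. Alternatives included DESeq2 1.42.0 and limma-voom (limma 3.58.1). The procedure was tested on simulated data. No 2 libraries were near-identical (chi-square per degree of freedom 25.3 to 74.7). Total reads limit precision to a floor of 0.138 to 0.163 CPM per library (3 reads).

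The members and lists were chosen with earlier results of these data known. Named were all 34 members and, from each further list, the 2 genes per direction with the smallest p and the 3 of highest mean RPKM; other genes, and the cadherin, claudin and keratin families, were named after their values were seen. A few genes named by this rule are left unreported.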

Additional observations from a re-analysis of the deposited data

How the results depend on the processing

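The count of genes past an adjusted p of 0.05 over all tested genes was 0 in edgeR (856 at an unadjusted p under 0.05), and also under RLE or upper-quartile factors, library size alone, limma-voom, a filter of 5 CPM in 2 libraries, and without mitochondrially encoded genes. It was 62 with DESeq2, 212 with no filter beyond 1 read, and 41 to 516 with 1 library left out (67 without responder replicate 1 and 173 without responder replicate 2; 516 without non-responder replicate 2); the cause was not tested. With the replicate number as a block it was 32. The labels do not say that a number marks a shared source, and with 2 libraries a group the deviations of same-numbered libraries correlated at 0.373; the block called 0 members. A group left with 1 library takes its spread from the other group.

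The number of members past the threshold was 1 with no filter (Cdh11, adjusted p = 0.0211), and 0 to 1 with 1 library left out (Cdh11 without non-responder replicate 2). The median log2 fold change of the mesenchymal members ran from -0.30 (without non-responder replicate 2) to -0.05 (without non-responder replicate 1), against a spread between replicates of 0.16. The 12 silent members were 15 at 10 or fewer reads, 9 under 0.1 CPM, and 12 to 14 with 1 library left out. Cdh2 exceeded Cdh1 in 4 of 4 libraries by RPKM; TPM keeps the order of genes within a library by construction and tests nothing here.

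Over 28 genes refitted under the alternatives, 12 of 357 values reversed in sign, 10 of them with 1 library left out: Cdh1 (0.31 with limma-voom, 0.16 with the replicate block, and -0.89 to 1.59 with 1 library left out), and, with 1 library left out, Tjp1 (-0.43 to 0.23), Lgals4 (-0.02 to 0.31), Cdh2 (-0.58 to 0.32), Snai1 (-0.30 to 0.11), Prrx1 (-0.09 to 0.32), S100a4 (-0.23 to 0.37) and Sis (-3.56 to 0.47). No count of reads could resolve a level under 0.0364 CPM over the summed depth.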

Other observations

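Krt16, a keratin gene of stressed skin epithelium, and its relative Krt42 were low but higher in both responder libraries. Krt16 had 0.29 and 1.44 CPM in non-responder libraries against 4.86 and 5.39 CPM in the responder ones (log2 fold change 2.55, edgeR adjusted p = 0.631), and Krt42 had 0.386 and 2.51 against 3.97 and 5.24 CPM (log2 fold change 1.65, edgeR adjusted p = 0.796). Krt5, a keratin of basal skin cells, had 1 read in the whole series, and Krt14 had 2.75 and 4.48 against 4.96 and 3.93 CPM. Krt14, Krt16 and Krt42 are close relatives, so reads that fit more than 1 of them were not counted. These genes were picked after their values were seen.

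Of the other cadherins, Cdh10 and Cdh18 were highest in non-responder replicate 1. Cdh10 had 24.3 and 5.16 CPM in non-responder libraries against 5.7 and 2.93 CPM in the responder ones (log2 fold change -1.77, edgeR adjusted p = 0.826), and Cdh18 had 4.59 and 1.03 against 1.14 and 0.262 CPM (log2 fold change -1.98, edgeR adjusted p = 0.798).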
